A study of Mus musculus with 6 samples.

Results

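The pregnane X receptor (PXR, gene *Nr1i2*) and the *Cyp3a* cytochrome P450 genes were examined in mouse liver with and without hepatocyte *Tcf7l2*. The 8 genes are *Nr1i2*, *Cyp3a11*, *Cyp3a13*, *Cyp3a16*, *Cyp3a25*, *Cyp3a41a*, *Cyp3a41b* and *Cyp3a44*, taken by symbol from the 23282 genes of the deposited count files, and all 8 passed the filter on low counts that left 14076 genes. RNA was sequenced from whole liver of 3 wild-type (*Tcf7l2* f/f) mice, libraries 7-2, 8-1 and 8-3, and of 3 *Alb-Cre;Tcf7l2* f/f (knockout) mice, libraries 7-2, 7-3 and 8-3. All mice were C57BL/6 by the labels (C57BL/6N in the study's methods) and 12 weeks old, were fasted for 24 h and had then been given normal chow again for 24 h. Both groups carried *Tcf7l2* alleles floxed at exon 5, and the knockout mice also carried Cre driven by the promoter of albumin, a hepatocyte gene, so that the deletion was aimed at hepatocytes. Whole liver also holds other cells, in which the gene was not followed separately. The comparison asks what loss of TCF7L2, a transcription factor at the end of the Wnt/β-catenin pathway, does to liver transcripts after refeeding.

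PXR is a nuclear receptor that binds DNA together with RXR and is activated by many drugs, steroids and bile acids. Its best known targets in liver are the CYP3A enzymes, haem proteins of the endoplasmic reticulum that oxidise steroids, bile acids and a large share of drugs. Mice carry a cluster of *Cyp3a* genes on chromosome 5, with *Cyp3a11* as the main adult hepatic form, which is best expressed in hepatocytes near the central vein. *Cyp3a41a*, *Cyp3a41b* and *Cyp3a44* are known for higher levels in adult female than in adult male liver, under the control of the growth hormone secretion pattern, and *Cyp3a16* for expression around birth.

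Total counts were 60619938 to 133384586 per library. Values are CPM, the counts scaled by library size and TMM factor, and a gene is called changed where the adjusted *p* of edgeR's quasi-likelihood test is under 0.05. The TMM factors differed by genotype, with 0.628 to 0.988 in wild-type and 1.10 to 1.40 in knockout libraries. Major urinary protein (*Mup*) genes held 31.7% to 54.3% of the counts in wild-type and 18.5% to 28.7% in knockout libraries. The targeted gene, *Tcf7l2*, stood at 4.87, 6.13 and 6.85 CPM in wild-type and at 3.31, 2.74 and 3.33 CPM in knockout liver, with no overlap between the groups (log2 fold change −0.93, SE 0.19, edgeR adjusted *p*=0.0856). Of 13 reference genes of pericentral hepatocytes, 8 passed the test as lower and 0 as higher (5 as lower without wild-type library 8-1, without knockout library 7-2 or without knockout library 8-3), and their summed level was 3008 to 3846 CPM in wild-type and 1212 to 1451 CPM in knockout liver. Over all 14076 tested genes, 0.377% passed as lower and 0.071% as higher. Of 10 hepatocyte markers, 0 passed in either direction (1 was higher at a *p* under 0.05 before adjustment, and 1 by DESeq2). The defining intestinal epithelial genes *Sis*, *Lct*, *Muc2* and *Cdx2* had 0 counts in all 6 libraries, and *Alpi* had 2 counts in all. Of the other two genes of that list, *Fabp2* had 83.6 to 106 CPM and *Vil1* 0.0147 to 0.331 CPM, and the groups overlapped in both.

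The *Cyp3a* rows differ in how far their reads can be told apart, so the sequences come before the values. Transcripts were taken from GENCODE, 1 per gene, and their stretches were searched in all GENCODE transcripts of the other genes. *Cyp3a41a* (2060 bases) and *Cyp3a41b* (2064 bases) were 99.7% identical, and 88.4% of all 100-base stretches of *Cyp3a41a* occurred letter for letter in *Cyp3a41b*. Over the aligned transcripts there were 6 edits, of which 4 were bases found only in *Cyp3a41b*, upstream of the coding sequence. The other two were substitutions inside the coding sequence, G207A and G423T, given as the base in *Cyp3a41a*, its position from the first base of the *Cyp3a41a* transcript, and the base in *Cyp3a41b*. The 29 bases around each substitution are shown because reads over them are among the few that separate both genes, with the differing base in capitals.
Cyp3a41a at 207: caggggattcctggGcccaaacctctgcc
Cyp3a41b at the same place: caggggattcctggAcccaaacctctgcc
Cyp3a41a at 423: tttggcccagtgggGataatgagtaaagc
Cyp3a41b at the same place: tttggcccagtgggTataatgagtaaagc

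The remaining members were more distinct. *Cyp3a41a* and *Cyp3a44* were 90.6% identical over their transcripts and shared 2.4% of the 100-base stretches of *Cyp3a41a*. *Cyp3a25* shared 6.07% of its stretches with *Cyp3a59*, a *Cyp3a* gene outside the 8 (96.6% identity), and *Cyp3a11* shared 0.299% of its stretches with any other *Cyp3a* gene. *Cyp3a13*, which lies 7420 kb from the cluster, shared none of its stretches with the others. Shorter stretches were shared more often. At 50 bases the share found in any other *Cyp3a* gene was 26.7% for *Cyp3a25*, 18.2% for *Cyp3a44*, 14.1% for *Cyp3a11*, 10.5% for *Cyp3a16* and 0% for *Cyp3a13*. The authors counted unique and multiple alignments, so reads from shared stretches bear on *Cyp3a41a* and *Cyp3a41b* most, and the level of either gene alone is uncertain.

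**Figure D1:**
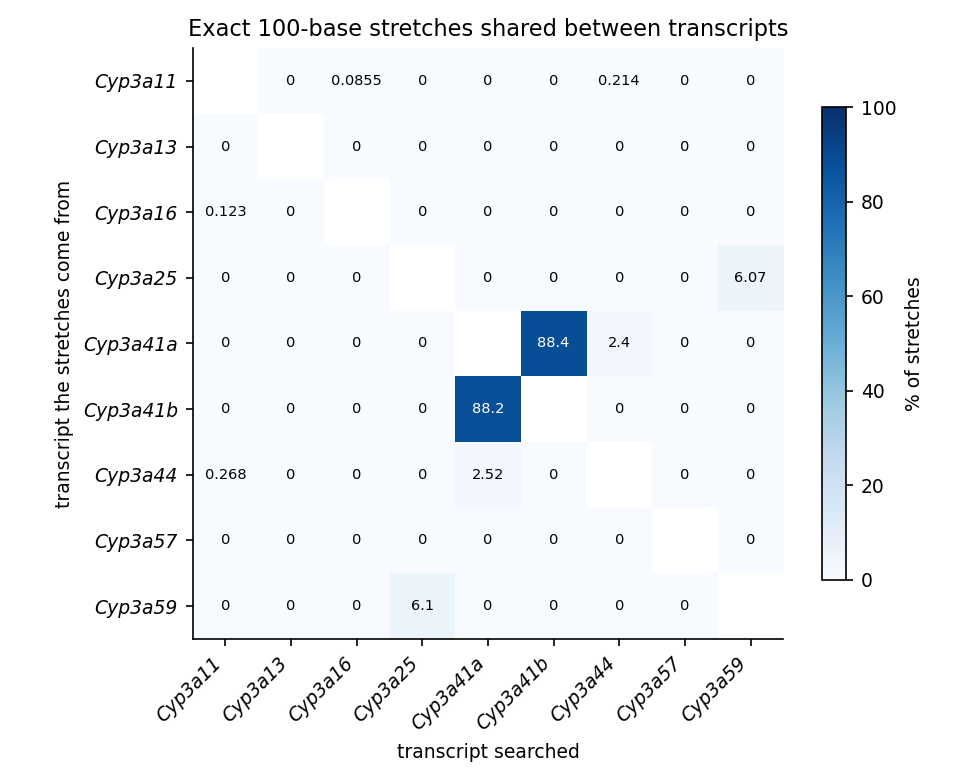
Share of exact 100-base stretches of each *Cyp3a* transcript (rows) that also occur in any transcript of another *Cyp3a* gene (columns), in percent. *Cyp3a41a* and *Cyp3a41b* share 88.4% and 88.2% of theirs, and no other pair shares more than 6.1%.

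Promoters were read from RefSeq (GRCm38.p6, the patch release of mm10), which had an entry for each of the 8 genes. The 170 bases before the start site of *Cyp3a11*, *Cyp3a41a*, *Cyp3a41b* and *Cyp3a44* are shown. The first is the main adult gene and the others are near copies, of which the *Cyp3a41b* row stood far below those of *Cyp3a41a* and *Cyp3a44*. Capitals mark the HNF4 motif CAAAGTCCA and single nuclear receptor half-sites, AGGTCA or AGTTCA on either strand. All 4 windows run 5′ to 3′ on the minus strand and end 1 base before the start site of the promoter table, which for *Cyp3a41b* and *Cyp3a44* lies slightly inside the outer gene boundaries given further on.
Cyp3a11, chr5:145879855-145880024: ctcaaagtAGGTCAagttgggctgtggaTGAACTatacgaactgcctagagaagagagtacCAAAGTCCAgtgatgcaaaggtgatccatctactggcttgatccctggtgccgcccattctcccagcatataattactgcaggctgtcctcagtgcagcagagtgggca
Cyp3a41a, chr5:145720137-145720306: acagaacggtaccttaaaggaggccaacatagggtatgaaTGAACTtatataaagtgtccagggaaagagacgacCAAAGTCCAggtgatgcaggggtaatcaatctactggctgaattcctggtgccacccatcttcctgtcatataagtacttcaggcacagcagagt
Cyp3a41b, chr5:145584731-145584900: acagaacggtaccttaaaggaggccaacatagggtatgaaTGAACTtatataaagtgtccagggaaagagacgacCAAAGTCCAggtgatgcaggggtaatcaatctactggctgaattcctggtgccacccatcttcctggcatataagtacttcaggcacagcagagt
Cyp3a44, chr5:145805875-145806044: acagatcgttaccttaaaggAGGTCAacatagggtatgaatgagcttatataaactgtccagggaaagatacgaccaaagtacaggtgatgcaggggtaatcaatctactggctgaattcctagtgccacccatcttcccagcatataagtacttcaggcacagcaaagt

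HNF4A is a nuclear receptor that keeps up hepatocyte genes and acts on *Cyp3a* genes together with PXR. Its motif CAAAGTCCA was found in the promoters (250 bases before to 50 after the start) of *Cyp3a11*, *Cyp3a16*, *Cyp3a41a* and *Cyp3a41b*, and in 0.475% of the 32851 RefSeq promoters on either strand. *Cyp3a44* had CAAAGTACA at that place, with 1 mismatch. The promoters of *Cyp3a41a* and *Cyp3a41b* were 97.4% identical, those of *Cyp3a41a* and *Cyp3a44* 93.1%, and those of *Cyp3a16* and *Cyp3a44* 93.4%, against 72.4% for *Cyp3a11* and *Cyp3a41a*. Single half-sites were found in 27.7% of all promoters. Paired half-sites of the forms DR3, DR4, ER6 and ER8 (same-direction pairs spaced by 3 or 4 bases, or everted pairs spaced by 6 or 8) were in none of the 8 windows, and each form was in at most 0.0274% of all promoters. The TCF motif ATCAAAG (3.73% of promoters) and the STAT5 motif TTCNNNGAA (8.3%) were also in none of the 8 windows. These are matches of letters in short windows, and PXR elements of *Cyp3a* genes that lie further upstream were not searched.

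Levels can be compared between genes only per transcript length, here as CPM per kb. In wild-type liver *Cyp3a11* came first, with a mean of 386 CPM per kb (264 to 466), followed by *Cyp3a25* with 83.4 (72.5 to 96.9) and *Cyp3a13* with 26.4 (21.3 to 29.9). *Cyp3a41a* (mean 9.47), *Nr1i2* (5.85), *Cyp3a44* (5.38) and *Cyp3a16* (1.81) came next, and each of these overlapped its neighbour in the order. The row of *Cyp3a41b*, a gene whose level alone is uncertain, was last at 0.366 CPM per kb (0.182 to 0.498). In knockout liver *Cyp3a11* was again first, with a mean of 716 CPM per kb (604 to 809). By their means, *Cyp3a41a* (251, from 64.6 to 604) and *Cyp3a44* (176, from 54.2 to 397) came next and overlapped with *Cyp3a25* (132, from 103 to 159). This order of means came from knockout library 8-3 alone. *Cyp3a25* was above *Cyp3a41a* and *Cyp3a44* in knockout libraries 7-2 (103 against 84.6 and 78.6) and 7-3 (133 against 64.6 and 54.2). *Cyp3a13* (27.1), *Nr1i2* (6.22), *Cyp3a16* (3.74) and *Cyp3a41b* (0.526) followed, with an overlap of *Nr1i2* and *Cyp3a16*.

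**Figure D2:**
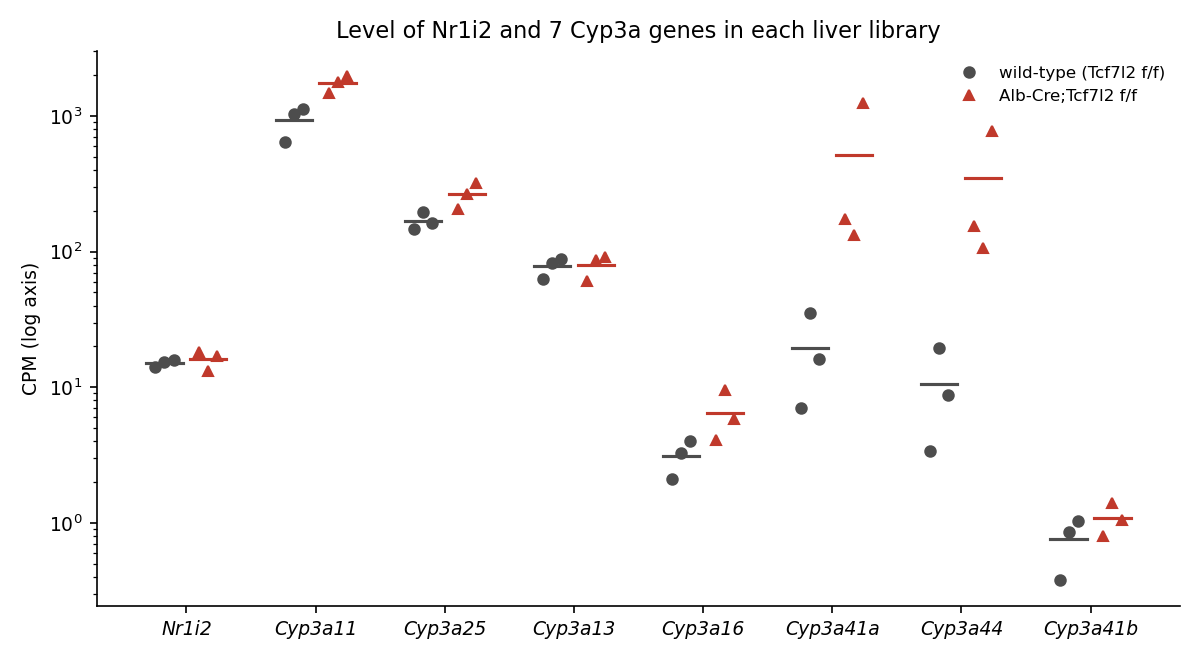
CPM of each gene (log axis) in the 3 wild-type (circles) and 3 knockout libraries (triangles), with the mean of each group as a bar. *Cyp3a41a* and *Cyp3a44* lie between 3.37 and 35.2 CPM in wild-type and between 106 and 1244 CPM in knockout libraries, whereas the groups overlap in *Nr1i2*, *Cyp3a13* and *Cyp3a41b*.

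Of the 8 genes, 1 passed edgeR's test as higher in knockout liver, where 0.071% of the 14076 tested genes did, and 0 passed as lower, where 0.377% of tested genes did. The one called was *Cyp3a44*. By unadjusted *p*, counted under 0.05 here and further on, 5 of the 8 were higher (6.7% of tested genes), and by the adjusted *p* of DESeq2, called under 0.05 as well, the count was also 5 (1.38% of the genes it tested). In 5 of the 7 *Cyp3a* genes, each knockout library lay above each wild-type library, which 10.2% of tested genes did, and in none did each lie below, which 9.08% did. The log2 fold change of all 8 was above 0, with a median of 0.78, and the median over all tested genes was −0.017. No separate cultures, cages or litters are given for the libraries beyond their labels, so the *p* values measure the spread between these mice.

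The steroid hydroxylase gene *Cyp3a44* (NM_177380; chromosome 5, 145773983 to 145805891) had 3.37, 19.6 and 8.71 CPM in wild-type libraries 7-2, 8-1 and 8-3. The knockout libraries 7-2, 7-3 and 8-3 held 154, 106 and 779 CPM. The lowest knockout library was 5.44 times the highest wild-type library, and knockout library 8-3 stood far above the other two. *Cyp3a44* rose from 10.6 ± 8.26 to 347 ± 375 CPM (means with SD, *n*=3 livers each), a log2 fold change of 5.03 with a 95% interval of 3.06 to 7.01 (SE 0.88, edgeR adjusted *p*=0.0496, DESeq2 adjusted *p*=0.000835). The call sat at the threshold: without knockout library 8-3 the log2 fold change was 3.62 and edgeR's adjusted *p*=0.0587, and without 1 of the other libraries adjusted *p* ran from 0.0315 to 0.202 and passed only without knockout library 7-3.

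*Cyp3a41a* (NM_017396; chromosome 5, 145694049 to 145720136), its neighbour in the cluster and another steroid hydroxylase gene, had 7.01, 35.2 and 16.3 CPM in the wild-type and 174, 133 and 1244 CPM in the knockout libraries. Both groups kept the order of *Cyp3a44*: wild-type 7-2 was lowest, wild-type 8-1 was highest among wild types, and knockout 8-3 was highest of all. The groups did not overlap, with the lowest knockout library at 3.78 times the highest wild-type library. The log2 fold change was 4.73 (95% interval 2.64 to 6.82, SE 0.94), and it missed the threshold by edgeR (adjusted *p*=0.0856) and passed it by DESeq2 (adjusted *p*=0.00536). Without knockout library 8-3 it was 2.98 (edgeR adjusted *p*=0.0958). Within the libraries the *Cyp3a44* count was 48.1% to 55.6% of the *Cyp3a41a* count in wild-type and 62.6% to 88.6% in knockout liver, so these genes did not change in an exactly fixed ratio.

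The row of *Cyp3a41b* (NM_001105159; chromosome 5, 145558664 to 145584732), the near copy of *Cyp3a41a*, did not show that pattern. It had 25, 72 and 70 counts in the wild-type libraries (0.376, 0.860 and 1.03 CPM) and 68, 107 and 90 counts in the knockout libraries (0.803, 1.41 and 1.04 CPM). The groups overlapped, and the log2 fold change was 0.52 (95% interval −0.38 to 1.41, SE 0.40, edgeR adjusted *p*=0.596). The *Cyp3a41b* count was 5.36%, 2.44% and 6.32% of the *Cyp3a41a* count in wild-type liver, against 0.461%, 1.06% and 0.0840% in knockout liver. A read from the 88.4% of shared stretches that was counted at each of its alignments would add to both rows, and the 2 rows did not differ between genotypes in the same way. How the aligner and the counting placed such reads was not tested. The value at *Cyp3a41a* may thus hold reads of either gene, and the row of *Cyp3a41b* may lack reads of its own gene. With both counts summed as 1 row, an alternative chosen after seeing the data, the log2 fold change was 4.68 (edgeR adjusted *p*=0.0856).

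*Cyp3a11* (NM_007818; chromosome 5, 145854607 to 145879854), the main adult form and the usual readout of PXR activity in mouse liver, had 644, 1042 and 1135 CPM in the wild-type libraries. Its knockout values were 1471, 1789 and 1973 CPM, each above each wild type. The lowest knockout library was 1.3 times the highest wild-type library. The mean went from 940 ± 261 to 1744 ± 254 CPM (SD, *n*=3), which is a log2 fold change of 0.89 (95% interval 0.33 to 1.46, SE 0.25). This missed edgeR's threshold (adjusted *p*=0.18) and passed that of DESeq2 (adjusted *p*=0.0048). Wild-type library 7-2 was the lowest of the 6 in *Cyp3a11*, and without it the log2 fold change was 0.69.

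*Cyp3a25* (NR_030782; chromosome 5, 145977192 to 146009644), an adult liver form that shares 6.07% of its stretches with *Cyp3a59*, had 146, 195 and 162 CPM in wild-type and 207, 268 and 320 CPM in knockout liver. The groups were separate but close, with the lowest knockout library at 1.07 times the highest wild type. The log2 fold change was 0.66 (SE 0.20, edgeR adjusted *p*=0.211, DESeq2 adjusted *p*=0.037). *Cyp3a16* (NM_007820; chromosome 5, 145436309 to 145469740), the form known from fetal and newborn liver, was low throughout. It had 2.09, 3.30 and 3.997 CPM in the wild-type and 4.11, 9.47 and 5.81 CPM in the knockout libraries. Here too the groups only just parted, at 1.03 times, and the log2 fold change was 1.04 (SE 0.32, edgeR adjusted *p*=0.211, DESeq2 adjusted *p*=0.034).

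*Cyp3a13* (NM_007819; chromosome 5, 137892933 to 137925610), the member outside the cluster and the form best known from the intestine, had 63.0, 82.6 and 88.4 CPM in wild-type and 60.9, 87.2 and 91.9 CPM in knockout liver. The 2 groups covered nearly the same range. The log2 fold change was 0.04 (95% interval −0.42 to 0.49, SE 0.20, edgeR adjusted *p*=0.959), an interval that spans folds of 0.75 to 1.4. The sign turned when wild-type 7-2, knockout 7-3 or knockout 8-3 was left out.

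*Nr1i2* (NM_010936; chromosome 16, 38248349 to 38294849), which encodes the receptor itself, had 14.2, 15.3 and 15.9 CPM in the wild-type libraries and 18.1, 13.1 and 17.0 CPM in the knockout libraries. Knockout 7-2 was the highest and knockout 7-3 the lowest of the 6, so that the wild-type values lay inside the range of the knockout values. The log2 fold change was 0.09 (95% interval −0.26 to 0.44, SE 0.16, edgeR adjusted *p*=0.843), which corresponds to a fold between 0.833 and 1.36. Without knockout library 7-2 it was −0.0068. These are mRNA counts, and neither the PXR protein nor its ligands were measured.

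**Figure D3:**
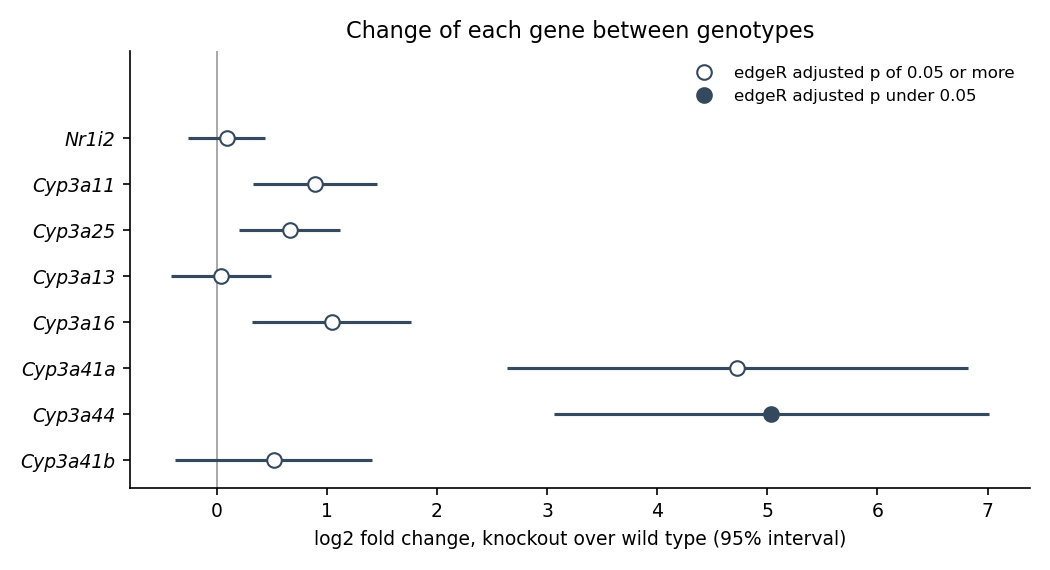
Log2 fold change of each gene, knockout over wild type, with its 95% interval computed from edgeR's test (filled: adjusted *p* under 0.05). *Cyp3a44* (5.03) and *Cyp3a41a* (4.73) stand apart with wide intervals, and the intervals of *Nr1i2*, *Cyp3a13* and *Cyp3a41b* include 0.

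The spread between mice was itself uneven among the members. In wild-type liver the coefficient of variation was 5.74% for *Nr1i2*, 14.8% for *Cyp3a25*, 17.1% for *Cyp3a13* and 27.7% for *Cyp3a11*, against 73.7% for *Cyp3a41a* and 78.3% for *Cyp3a44*. In knockout liver it was 122% for *Cyp3a41a* and 108% for *Cyp3a44*, and 14.5% for *Cyp3a11*. Wild-type library 7-2 had the lowest value among wild types in all 8 genes. The leading number of the library labels, 7 or 8, is not explained by the labels. Among libraries labelled 7 the log2 ratio of the knockout mean to the wild-type library was 5.27 for *Cyp3a44*, 4.45 for *Cyp3a41a* and 1.34 for *Cyp3a11*. Among those labelled 8, which hold 1 knockout library, it was 5.78, 5.59 and 0.86. *Cyp3a44*, *Cyp3a41a* and *Cyp3a11* thus kept their direction under both numbers. *Nr1i2* had 0.14 and 0.13, but knockout libraries 7-2 and 7-3 lay on either side of wild-type 7-2 (18.1 and 13.1 against 14.2 CPM).

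The summed level of the 7 *Cyp3a* rows was 866, 1378 and 1415 CPM in wild-type and 2073, 2395 and 4414 CPM in knockout liver. The mean was 2.43 times higher in knockout liver (two-sided exact permutation test, *p*=0.1, the smallest that 3 mice against 3 allow). Without *Cyp3a41a* and *Cyp3a44* the ratio was 1.76 (two-sided exact permutation test, *p*=0.1). *Cyp3a11* gave 74.4%, 75.6% and 80.2% of the *Cyp3a* counts in wild-type libraries and 71.0%, 74.7% and 44.7% in knockout libraries. *Cyp3a41a* and *Cyp3a44* together gave 1.2%, 3.98% and 1.76% in wild-type and 15.9%, 10.001% and 45.8% in knockout libraries. In knockout library 8-3 these genes thus made up slightly more of the *Cyp3a* counts than *Cyp3a11* did, and in the other knockout libraries far less. Per transcript length, *Cyp3a41a* gave 30.1%, *Cyp3a44* 19.8% and *Cyp3a11* 40.4% of the *Cyp3a* level in knockout library 8-3.

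**Figure D4:**
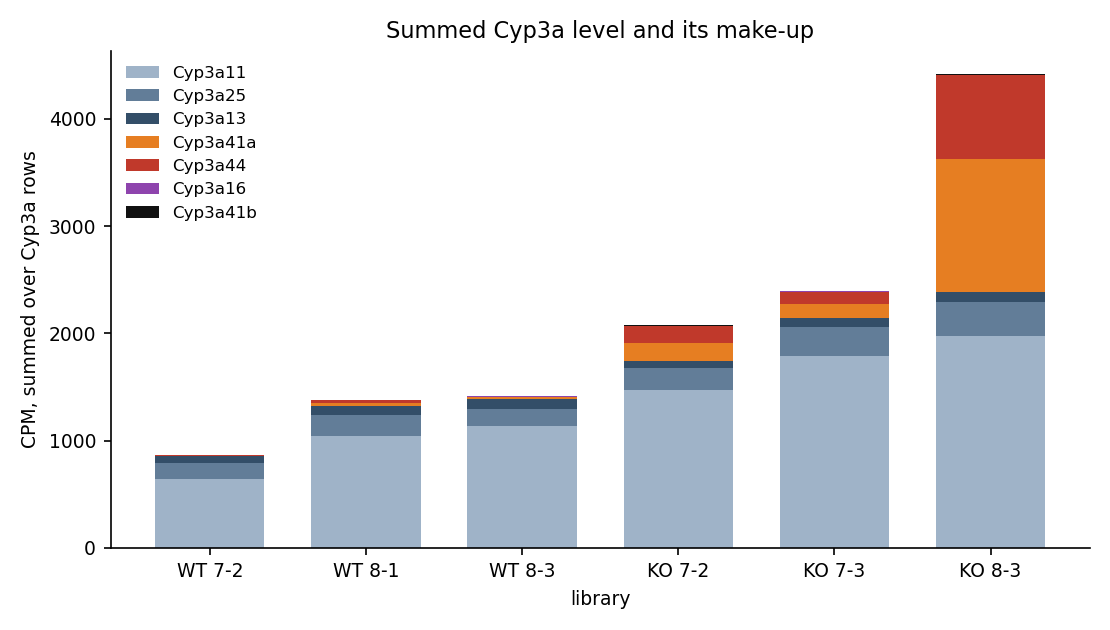
CPM summed over the 7 *Cyp3a* rows in each library, from 0, with each gene's part in its own colour. The wild-type bars reach 866 to 1415 CPM and the knockout bars 2073 to 4414 CPM, of which *Cyp3a41a* and *Cyp3a44* are a clear part in the knockout libraries, most of all in library 8-3.

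Ratios within a library do not depend on how libraries are scaled, and 16 of them were compared between genotypes (for each, the smallest exact permutation *p* is 0.1, which becomes 0.178 after Benjamini-Hochberg adjustment, so none could pass). The log2 ratio of *Cyp3a11* to *Nr1i2* was 5.51, 6.09 and 6.16 in wild-type and 6.34, 7.10 and 6.86 in knockout libraries, a mean difference of 0.85 with no overlap. The log2 ratio of *Cyp3a13* to *Cyp3a11* was lower in each knockout library (mean difference −0.89), and that of *Cyp3a25* to *Cyp3a13* was higher (0.62). *Cyp3a44* gained 3.89 and *Cyp3a41a* 3.35 over *Cyp3a11* on the log2 scale, again with no overlap. The ratio of *Cyp3a25* to *Cyp3a11* overlapped between genotypes (mean difference −0.27), as did that of *Cyp3a16* to *Cyp3a11* (0.09).

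The deposited files hold 2 further *Cyp3a* genes. *Cyp3a59* had 25.6, 29.9 and 34.4 CPM in wild-type and 38.4, 55.9 and 67.1 CPM in knockout liver (log2 fold change 0.84, SE 0.21, edgeR adjusted *p*=0.147, DESeq2 adjusted *p*=0.00956). *Cyp3a57* had 1.67 to 2.45 CPM in wild-type and 3.07 to 3.81 CPM in knockout liver (log2 fold change 0.73, SE 0.22, edgeR adjusted *p*=0.198). Thus each of the 8 *Cyp3a* genes of the cluster had a log2 fold change above 0, and in *Cyp3a41b* alone the groups overlapped. Genes next to the cluster differed less. *Zscan25*, *Zfp655* and *Zkscan5* on one side had log2 fold changes of 0.01, 0.26 and 0.06, and *Rnf6* and *Cdk8* on the other 0.26 and 0.28 (edgeR adjusted *p* from 0.398 to 0.993). *1700001J03Rik*, between the cluster and *Rnf6*, had 0 counts. Beside *Nr1i2*, *Gsk3b*, a kinase of the β-catenin destruction complex, had 0.11 (edgeR adjusted *p*=0.838), and *Maats1* had 2 counts in all.

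**Figure D5:**
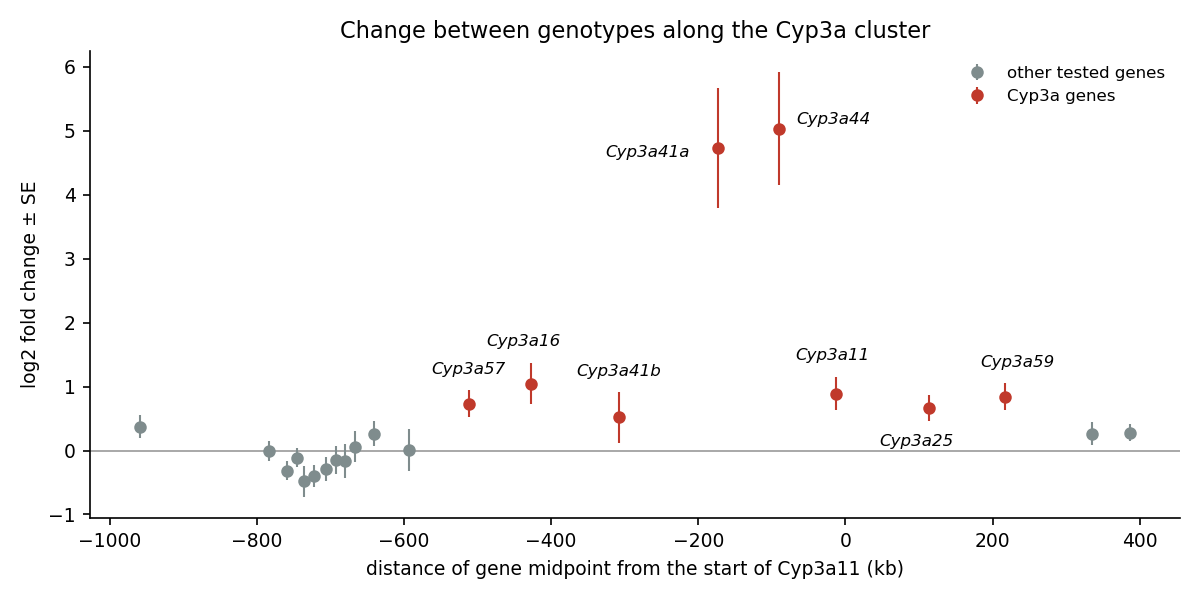
Log2 fold change (knockout over wild type, ± SE computed from edgeR's test) of tested genes against the distance of their midpoint from the start of *Cyp3a11*, in kb. The *Cyp3a* genes lie above 0, with *Cyp3a41a* (4.73) and *Cyp3a44* (5.03) side by side, and the nearest tested neighbours on both sides lie between 0.01 and 0.28.

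Of 16 genes for partners and regulators of PXR 0 passed edgeR's test (2 higher and 1 lower by unadjusted *p*, and 0 and 1 by DESeq2), with a median log2 fold change of 0.11. Over all tested genes, the background of this and the later lists, 6.7% were higher and 6.76% lower by unadjusted *p*. By DESeq2 these shares were 1.38% and 1.7%. *Rxra*, the main dimer partner in liver, had 121, 108 and 120 CPM in wild-type and 107, 105 and 138 CPM in knockout liver (log2 fold change 0.00, SE 0.17). *Rxrb* had 0.03 and *Rxrg* −0.25. *Hnf4a* had 275, 229 and 194 CPM in wild-type and 231, 264 and 275 CPM in knockout liver (0.14, SE 0.18). *Nr0b2* (SHP), a repressor of PXR and other receptors, was 10.5, 12.2 and 13.2 CPM in wild-type and 8.96, 6.32 and 7.47 CPM in knockout liver, with no overlap (−0.66, SE 0.17, edgeR adjusted *p*=0.158, DESeq2 adjusted *p*=0.0388). The coactivator *Ncoa1* had 0.45 (edgeR adjusted *p*=0.228) and the glucocorticoid receptor *Nr3c1*, which drives *Nr1i2* and *Cyp3a11*, had 0.38 (edgeR adjusted *p*=0.282). Further members were *Ncoa3* (0.37), *Ncoa2* (0.08), *Ncor1* (0.05), *Nr1h4* (0.28), *Cebpa* (0.42), *Foxo1* (−0.15), *Foxa2* (0.17) and *Ppargc1a* (−0.11).

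Among other sensors of foreign compounds, 0 of 5 tested genes passed (1 higher and 1 lower by unadjusted *p*, and 0 by DESeq2). *Nr1i3*, the constitutive androstane receptor CAR, which shares targets with PXR, had 20.9, 20.9 and 18.6 CPM in wild-type and 20.2, 24.5 and 37.0 CPM in knockout liver (log2 fold change 0.44, SE 0.21, edgeR adjusted *p*=0.408). The aryl hydrocarbon receptor *Ahr* had 14.3, 16.5 and 17.7 CPM in wild-type and 6.24, 10.1 and 12.2 CPM in knockout liver (−0.76, SE 0.23, edgeR adjusted *p*=0.199), and its partner *Arnt* had 0.49 (edgeR adjusted *p*=0.253). The oxidant sensor genes *Nfe2l2* and *Keap1* had 0.37 and 0.01. *Vdr*, the vitamin D receptor, which can also act on *Cyp3a* genes, had 0 to 6 counts per library and was not tested.

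The targets of PXR outside the *Cyp3a* family did not all move as *Cyp3a11* did. Of 26 listed genes 25 were tested, of which 2 passed as higher and 1 as lower (9 and 4 by unadjusted *p*, 6 and 3 by DESeq2), with a median log2 fold change of 0.29. The shares of all tested genes higher and lower were 0.071% and 0.377% by edgeR's test and 6.7% and 6.76% by unadjusted *p*. By DESeq2 they were 1.38% and 1.7%. Without wild-type library 8-1, 1 of the 25 passed. *Slco1a4*, an uptake transporter of organic anions and drugs, rose from 2.92, 5.63 and 5.17 CPM in wild-type to 22.3, 20.7 and 29.5 CPM in knockout liver (log2 fold change 2.40, SE 0.25, edgeR adjusted *p*=0.00325). *Cyp2b10*, the P450 best known as a CAR target, rose from 0.135, 0.0358 and 0.162 to 0.956, 1.26 and 3.44 CPM (4.11, SE 0.64, edgeR adjusted *p*=0.0303), a low level throughout. *Ces2c*, a carboxylesterase gene that PXR ligands raise, fell from 42.8, 38.9 and 34.2 to 6.33, 5.51 and 12.4 CPM (−2.26, SE 0.29, edgeR adjusted *p*=0.00943).

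P450 enzymes need electrons and haem. Of 6 electron donor and helper genes 0 passed edgeR's test (1 was higher by unadjusted *p*, 0 by DESeq2). *Por*, the NADPH reductase of all microsomal P450 enzymes, had 188, 202 and 198 CPM in wild-type and 162, 227 and 251 CPM in knockout liver (log2 fold change 0.12, edgeR adjusted *p*=0.811). *Cyb5a*, cytochrome b5, had −0.26 (edgeR adjusted *p*=0.58). Of 9 genes of haem synthesis and breakdown 0 passed (1 higher and 1 lower by unadjusted *p*, 0 by DESeq2). *Alas1*, which sets the rate of haem synthesis in liver and is a PXR target, had 173, 174 and 178 CPM in wild-type and 282, 230 and 227 CPM in knockout liver, with no overlap (0.49, SE 0.16, edgeR adjusted *p*=0.244).

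Because *Cyp3a41a* and *Cyp3a44* are known as female-biased, the other genes of that kind were looked at beside them. The labels do not give the sex of these mice, and the methods name males for the knockout and littermate mice of the diet experiments. All 6 libraries held the Y-linked transcripts *Ddx3y* (19.4 to 33.4 CPM), *Eif2s3y* (21.2 to 32.1 CPM), *Kdm5d* (5.37 to 7.67 CPM) and *Uty* (3.90 to 5.74 CPM), as male liver does, and *Xist*, which is abundant in female tissue, had 4 to 19 counts per library. Of 20 further female-biased genes 10 fell below the filter, with *Sult3a1* at 0 counts in all libraries, and *Hao2* at 2 counts and *Cyp2b13* at 3 counts over all 6. Of the 10 tested, 0 passed as higher and 1 as lower (0 and 4 by unadjusted *p*, 0 and 2 by DESeq2). Over all tested genes, 6.76% were lower by unadjusted *p* and 1.7% by DESeq2. The one called, *Cyp2a4*, a steroid hydroxylase gene with near-identical relatives, fell from 18.1, 14.7 and 20.7 to 0.0236, 0.0395 and 0.0116 CPM (log2 fold change −9.42, SE 0.32, edgeR adjusted *p*=9.51e-07). Among the tested female-biased genes listed here, edgeR called *Cyp3a44* alone higher in knockout liver, at the threshold (adjusted *p*=0.0496). *Cyp3a41a* missed that threshold (edgeR adjusted *p*=0.0856), and DESeq2 called both genes higher (adjusted *p*=0.000835 for *Cyp3a44* and 0.00536 for *Cyp3a41a*).

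Of 24 male-biased genes 0 passed as higher and 1 as lower, *Susd4* (log2 fold change −3.002, edgeR adjusted *p*=0.0033), with 4 higher and 7 lower by unadjusted *p* and 1 higher and 3 lower by DESeq2. Over all tested genes, 6.7% were higher and 6.76% lower by unadjusted *p*, and 1.38% and 1.7% by DESeq2. *Slco1a1*, a male-biased transporter, stood at 142, 146 and 128 CPM in wild-type and 260, 236 and 247 CPM in knockout liver (0.84, edgeR adjusted *p*=0.0633). Of 13 tested genes of growth hormone signalling and sex pattern, 0 passed by either tool and 0 had an unadjusted *p* below 0.05. *Stat5b*, the main carrier of the male growth hormone signal in liver, had 0.40 (edgeR adjusted *p*=0.381). *Onecut1* had 2.44, 3.46 and 2.38 CPM in wild-type and 11.1, 2.84 and 2.75 CPM in knockout liver, with knockout library 7-2 far above the other five, and the groups overlapped.

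Other kinds of genes also differed between the same libraries. Acute phase genes, which the liver raises in inflammation, a state known to lower *Cyp3a11*, summed to 14866 to 32329 CPM in wild-type and 11999 to 15898 CPM in knockout liver. Of 15 such genes 0 passed edgeR's test, and 14 were lower by unadjusted *p* (6.76% of all tested genes) and 6 by DESeq2 (1.7%). Without wild-type library 7-2, 4 of the 15 passed edgeR's test. *Lcn2* had 6.18, 476 and 350 CPM in wild-type libraries 7-2, 8-1 and 8-3 and 4.32, 15.99 and 7.49 CPM in the knockout libraries. Wild-type 7-2, the wild-type library with the lowest acute phase values shown here, had the lowest wild-type value in all 8 genes, not in *Cyp3a11* alone. Stellate cell markers summed to 48.8 to 63.5 CPM in wild-type and 88.3 to 91.4 CPM in knockout liver (7 of 10 higher and 0 lower by unadjusted *p*, 0 passing edgeR's test, 3 higher by DESeq2), and 10 sinusoidal endothelial markers to 80.03 to 89.8 and 104 to 106 CPM (3 higher by unadjusted *p*, 0 passing by either tool). Over all tested genes, 6.7% were higher by unadjusted *p* and 1.38% by DESeq2. The part of these acute phase, stellate and endothelial genes in the *Cyp3a* results was not tested. In whole liver, more cells of a type and more RNA per cell cannot be told apart.

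By a rule on likeness, the 5 genes whose log2 CPM followed *Nr1i2* most closely over the 6 libraries, among 9476 genes, were *Anks4b* (Pearson *r*=0.986), *Dhx30*, *Dlg3*, *Khdrbs1* and *Ehd3* (*r*=0.968). *Anks4b* had 21.7, 29.7 and 30.1 CPM in wild-type and 40.8, 19.7 and 36.1 CPM in knockout liver, with the same lowest and highest knockout library as *Nr1i2*. For *Cyp3a11* they were *Mertk* (*r*=0.998), *Rragc*, *Zmynd11*, *Rin3* and *Sepsecs* (*r*=0.99). *Mertk*, a receptor for the uptake of dying cells, had 2.72, 3.73 and 4.03 CPM in wild-type and 4.63, 5.28 and 5.41 CPM in knockout liver. With 6 libraries that share their depth and scaling, and 9476 genes to pick from, these are descriptions only.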

How the data were processed

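RNA of 3 wild-type and 3 knockout livers was sequenced from a directional kit. Raw counts of genes were deposited by the authors, for which they used Bedtools 2.25.0 and kept reads with 1 or several alignments. The submitters' processing notes name TopHat, without a version, and mm10. The annotation is not given in the sources used here. How reads with several alignments were placed among near copies was not tested.

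The genotypes were compared in R 4.3.3 with the quasi-likelihood test of edgeR 4.0.16 (with limma 3.58.1) on all 14076 genes kept by filterByExpr (min.count 10, min.total.count 15), with TMM factors, no block and Benjamini-Hochberg adjustment. DESeq2 1.42.0 was run on the same genes. CPM use TMM-scaled library sizes, and CPM per kb divide by the length of 1 GENCODE transcript per gene. The GENCODE transcripts belong to a later genome build than mm10. Standard errors (SE) were approximated as the absolute log2 fold change over the square root of the test's F statistic. Intervals of 95% were computed from these. The steps were tested on simulated data. Motifs were searched in RefSeq promoters (GRCm38.p6), whose positions are those of mm10, and 22849 of the 23282 accessions were found in RefSeq. Gene positions are from the same RefSeq table.

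The 8 genes and all gene lists were chosen with earlier results of these data known. The rule for named genes takes the 8 members, up to 3 genes of each list with the smallest *p*, all PXR partners and sensors, the neighbours and the genes of closest likeness. *Por*, the genes below the filter and *Cyp3a57* and *Cyp3a59* were named after their values were seen. Some genes of the lists are not reported here by name.

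The 2 labels that occur in both genotypes, 7-2 and 8-3, were not taken as pairs. Deviations of same-labelled libraries from their group means correlated at 0.0079 and −0.0069. With so few libraries this cannot exclude a shared litter, cage or day. No 2 libraries were copies of each other. Settings tried were DESeq2, other scalings, limma, other filters, blocks on the labels, each library left out and like rows merged.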

Additional observations from a re-analysis of the deposited data

How the results depend on the processing

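Of the 8 genes, 1 was called higher and 0 lower. Other settings called 5 higher (DESeq2), 6 (library sizes alone), 2 (no filter on low counts), 0 (upper-quartile factors), 0 (scaling without the *Mup* genes), 0 (*Cyp3a16*, *Cyp3a41a*, *Cyp3a41b* and *Cyp3a44* as 1 row of their mean) and 2 with each replicate block (on the full label and on the leading number). With 1 library left out the count was 0 to 1. Whether the labels pair the libraries is not known, and the block moved *Cyp3a41a* past the threshold (edgeR adjusted *p*=0.0121 and 0.00092).

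Over all tested genes, 10 were called higher and 53 lower. DESeq2 called 194 and 239, library sizes alone 2932 and 88 with a median log2 fold change of 0.61, limma-voom 6 higher, no filter 23 higher, the full-label replicate block 34 lower, and the block on the leading number 6 and 33. With 1 library left out, 3 to 18 were higher and 21 to 71 lower.

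*Cyp3a44* was called in 11 of 18 alternatives with its own row, with log2 fold changes of 3.62 to 6.01. The summed *Cyp3a* level kept its direction in all alternatives run. With 1 library left out, *Cyp3a13* ran from −0.090 to 0.20 and *Nr1i2* from −0.0068 to 0.22 on the log2 scale, the log2 ratio of *Cyp3a16* to *Cyp3a11* differed by −0.20 to 0.26 between genotypes, and that of *Cyp3a13* to *Nr1i2* by −0.26 to 0.23. The causes were not tested. With 3 mice per genotype, adjusted *p* values near the threshold turn on single libraries.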
